A study of Mus musculus with 6 samples.

Results

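The genes described here are Arg2 and 9 further enzymes of arginine and polyamine metabolism: Oat, Cps1, Otc, Ass1, Odc1, Amd1, Srm, Sms and Sat1. They were taken by name from a table of 23565 genes, and they were chosen by their counts in the comparison described here: the difference in Arg2 was already known, and the other 9 were added as enzymes of its pathways. All 10 were present and all 10 passed the filter on low counts. Their differences between groups are therefore given as descriptions, with each library's value and no p-value, and the count of members past the threshold of the fit over all genes supports nothing here.

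RNA was sequenced from cells sorted out of mouse small-intestinal crypts, in 3 libraries per group. The first group was sorted for tdTomato from HopXCreER::Rosa26LSL-tdTomato mice, in which a tamoxifen-activated Cre recombinase is made where Hopx is expressed. The second was sorted for both eGFP and tdTomato from Lgr5eGFP-IRES-CreER::Rosa26LSL-tdTomato mice, in which the same recombinase and eGFP are made where Lgr5 is expressed. All mice, 3 of each genotype, carried the Rosa26 reporter that makes tdTomato once Cre has acted, all received 1 mg of tamoxifen, and crypts were taken 16 h later. Neither an age nor a tie between a library and a mouse is given in the sources used here, so the spread between libraries may be partly technical. Genotype and sorting gate change together, and no group lacks tamoxifen, so their effects cannot be told apart. In bulk RNA, fewer cells of a type and less RNA per cell cannot be told apart either.

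Arginase 2, encoded by Arg2, is the mitochondrial enzyme that splits arginine into ornithine and urea. From ornithine the routes part: ornithine aminotransferase (Oat) links it to glutamate and proline, ornithine carbamoyltransferase (Otc) joins it to the carbamoyl phosphate made by Cps1 to give citrulline, and ornithine decarboxylase (Odc1) turns it into putrescine. Spermidine synthase (Srm) and spermine synthase (Sms) then extend putrescine with units that Amd1 provides from S-adenosylmethionine, and Sat1 acetylates the products for breakdown or export. The small intestine is known for releasing citrulline made by its enterocytes, and polyamines are known to be needed for the growth of its epithelium.

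Several sequences bear on which gene a read can be given to. Arg2 has a close relative, Arg1, the cytosolic arginase of liver, and a read could be misplaced only where their sequences coincide. Their coding sequences (1062 and 969 bases) were 58.7% identical, and the longest run they share is 12 bases, shown here in capitals within its surroundings, 5′ to 3′, from the GENCODE M21 transcripts on GRCm38.
Arg2, chr12:79150769-79150820, plus strand: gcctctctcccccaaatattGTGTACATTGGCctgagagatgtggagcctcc
Arg1, chr10:24916781-24916832, minus strand: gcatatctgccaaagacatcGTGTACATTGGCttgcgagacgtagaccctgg
No 31-base word of the Arg2 transcript occurred in Arg1, whose levels are given with the other arginine genes. Of the 31-base words of Arg2, 23.6% also occurred in other genes, namely Vti1b and the antisense gene Gm48780, both of which overlap Arg2 on the opposite strand. Vti1b, a SNARE protein gene, overlaps the last 285 bases of Arg2, and the libraries do not mark the strand. It had 110.7, 106.7 and 111.2 CPM (read counts brought to one common library size, with TMM factors) in the Hopx-CreER libraries and 79.9, 85.5 and 98.9 in the Lgr5-CreER libraries. The group means of Arg2 lay 398 CPM apart. The Vti1b level does not bound the reads of Vti1b that were given to Arg2, and Gm48780 was not among the counted genes. The share of opposite-strand reads in the Arg2 counts was therefore not tested.

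Arg2 lies at chr12:79130777-79156301 on the plus strand (GRCm38). Its level was 460.1, 394.5 and 566 CPM in Hopx-CreER libraries 1, 2 and 3, and 66.7, 63.0 and 95.5 CPM in Lgr5-CreER libraries 1, 2 and 3. The lowest Hopx-CreER library was above the highest Lgr5-CreER library, and the third library was the highest in each group; library numbers follow the order of the columns and pair nothing. The means were 473 ± 86.4 CPM and 75.1 ± 17.8 CPM (SD, n = 3 each), a log2 fold change of 2.66 ± 0.20 (SE) or 6.30-fold. Of the 12439 genes tested, 1.99% had a larger rise in Hopx-CreER cells. Among the 8514 with at least 10 CPM in the higher group, 120 did. The plot of the 10 genes by library shows that no other member was separated this far.

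**Figure D1:**
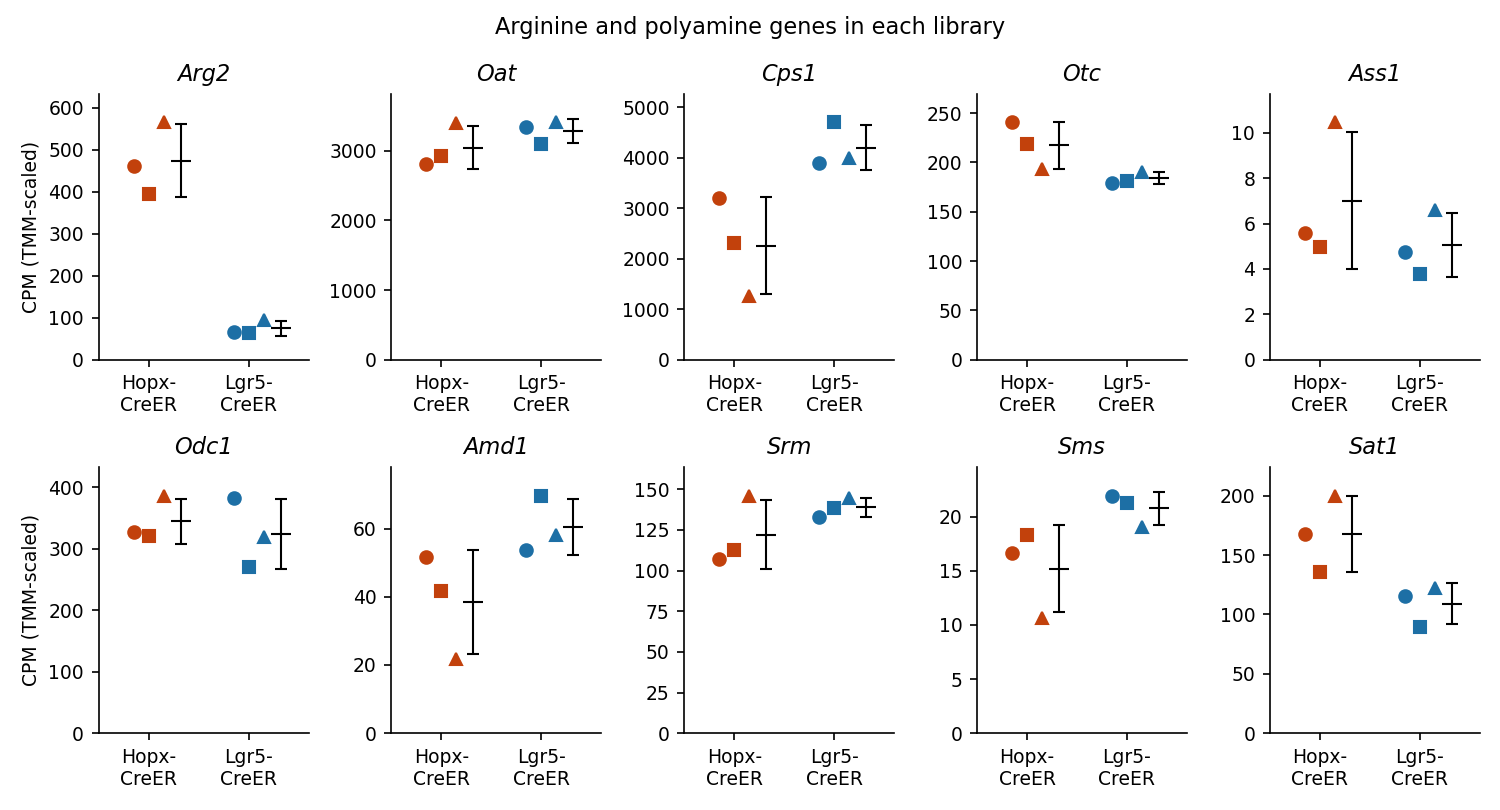
TMM-scaled CPM of each of the 10 genes (vertical axes, each starting at 0) in the 3 Hopx-CreER and 3 Lgr5-CreER libraries. Circles, squares and triangles are libraries 1, 2 and 3 of a group and black marks are the mean ± SD; Arg2 runs from 394.5 to 566 CPM against 63.0 to 95.5 CPM, while Oat, Odc1, Srm and Ass1 overlap between the groups.

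Oat, which acts directly on the ornithine that arginase forms, lies at chr7:132557478-132576398 on the minus strand. It was measured at 2816, 2923 and 3404 CPM in Hopx-CreER cells and at 3347, 3096 and 3414 CPM in Lgr5-CreER cells. The groups overlapped, with means of 3047 ± 313 and 3285 ± 168 CPM and a log2 fold change of -0.11 ± 0.12. The large difference in Arg2 was thus not accompanied by one of like size in Oat.

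Cps1, which makes carbamoyl phosphate in mitochondria, lies at chr1:67123026-67231259 on the plus strand. Its level was 3194.5, 2306 and 1269 CPM in Hopx-CreER cells and 3890.5, 4704 and 3998 CPM in Lgr5-CreER cells. All Hopx-CreER libraries were below all Lgr5-CreER libraries, and library 3 of the Hopx-CreER group was the lowest. The means were 2257 ± 964 and 4197 ± 442 CPM, 1.86-fold higher in Lgr5-CreER cells (log2 fold change -0.90 ± 0.28). Without Hopx-CreER library 3 the log2 fold change was -0.62.

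Otc, the partner of Cps1 in citrulline synthesis, lies at chrX:10252305-10321024 on the plus strand. It was measured at 241, 218 and 193 CPM in Hopx-CreER cells and at 179, 182 and 191 CPM in Lgr5-CreER cells. The groups did not overlap, although Hopx-CreER library 3 was just above Lgr5-CreER library 3, with means of 218 ± 23.8 and 184 ± 6.09 CPM and a log2 fold change of 0.24 ± 0.11. With an offset for transcript GC content it was 0.51. Ass1, which joins citrulline to aspartate on the way back to arginine, lies at chr2:31470207-31520672 on the plus strand and was scarce. Its level was 5.57, 4.99 and 10.5 CPM in Hopx-CreER cells and 4.75, 3.80 and 6.61 CPM in Lgr5-CreER cells, so the groups overlapped (log2 fold change 0.47 ± 0.37). Without Hopx-CreER library 3, the Ass1 log2 fold change was 0.05. The 457 Ass1 counts may include reads of the pseudogene Gm5424, since 61.5% of the 31-base words of Ass1 occur in it, although only 14 counts were given to Gm5424 itself.

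The 4 enzymes that make polyamines had log2 fold changes between -0.65 and 0.09. Odc1, the rate-limiting enzyme of the pathway, lies at chr12:17544794-17551505 on the plus strand. It was measured at 326, 320.5 and 386 CPM in Hopx-CreER cells and at 382, 269 and 318 CPM in Lgr5-CreER cells. These ranges overlapped almost wholly, with means of 344 ± 36.4 and 323 ± 56.5 CPM and a log2 fold change of 0.09 ± 0.14, which turned to -0.03 at its lowest when 1 library was left out. Odc1 shares 52% of its 31-base words with 21 other genes, mostly pseudogenes, but those of them in the table held 1052 counts together against 25732 for Odc1.

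Amd1, S-adenosylmethionine decarboxylase, lies at chr10:40287458-40302186 on the minus strand. Its level was 51.7, 41.7 and 21.9 CPM in Hopx-CreER cells and 53.7, 69.7 and 58.2 CPM in Lgr5-CreER cells. The groups did not overlap, although library 1 of one group came close to library 1 of the other, and Hopx-CreER library 3 was far below the rest (means 38.4 ± 15.2 and 60.5 ± 8.24 CPM, log2 fold change -0.65 ± 0.27). Without that library the log2 fold change was -0.39. Amd1 has a near copy, Amd2, with a coding sequence 99.9% identical. Amd2 was given 12 counts in all and Amd1 3870, so how reads were shared between these copies is uncertain.

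Srm, at chr4:148591503-148594993 on the plus strand, was measured at 107, 113 and 146 CPM in Hopx-CreER cells and at 133, 139 and 145 CPM in Lgr5-CreER cells. The groups overlapped through Hopx-CreER library 3, with means of 122 ± 21.2 and 139 ± 5.70 CPM and a log2 fold change of -0.19 ± 0.14, or -0.41 with the GC offset. Sms, at chrX:157443855-157492287 on the minus strand, was measured at 16.6, 18.3 and 10.7 CPM and at 22.0, 21.2 and 19.1 CPM. All Hopx-CreER libraries were below all Lgr5-CreER libraries (means 15.2 ± 4.0 and 20.8 ± 1.51 CPM, log2 fold change -0.45 ± 0.24). These synthases, which add the same unit to successive polyamines, were 47.6% identical in coding sequence with no shared run above 11 bases. Sms shares 29% of its 31-base words with other genes, among which its pseudogene Sms-ps was given 58 counts against 1403 for Sms.

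Sat1, the acetyltransferase that starts polyamine breakdown, lies at chrX:155213132-155216449 on the minus strand. Its level was 168, 136 and 200.2 CPM in Hopx-CreER cells and 116, 89.5 and 122 CPM in Lgr5-CreER cells. The groups did not overlap, and the second library was the lowest of each. The means were 168 ± 32 and 109 ± 17.3 CPM, 1.54-fold higher in Hopx-CreER cells (log2 fold change 0.62 ± 0.17). With 1 library left out at a time, the value lay between 0.47 and 0.75.

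Across the 10 members, 2 passed the edgeR threshold over all tested genes (Benjamini-Hochberg adjusted p under 0.05), Arg2 and Sat1, both higher in Hopx-CreER cells, where 12.8% of all tested genes passed. In 6 of the 10 the groups did not overlap, 3 higher (Arg2, Otc, Sat1) and 3 lower (Cps1, Amd1, Sms), where 34.9% of all tested genes had no overlap. Since the members were chosen with this comparison known, nothing is read from these counts. The median log2 fold change of the members was -0.01, beside -0.03 for all tested genes, and the 9 members other than Arg2 ranged from -0.90 to 0.62. Sat1 did not pass when library totals alone set the scale, when both Lgr5-CreER columns with a number in common were summed, or without 1 of 5 libraries (any but Hopx-CreER library 2). Cps1 passed with DESeq2, with limma-voom, without the count filter and without Hopx-CreER library 1 or 3.

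Levels of different genes were compared per kilobase of each gene's longest annotated transcript (CPM per kb). Oat was the most abundant of the 10 in both groups, at 1416 ± 146 CPM per kb in Hopx-CreER cells and 1527 ± 77.9 in Lgr5-CreER cells. In Hopx-CreER cells Cps1 came next at 406 ± 173 (range 228 to 575) and Arg2 after it at 332 ± 60.5 (range 276 to 396), so these neighbours overlapped. Below them, Odc1 at 156 ± 16.5 and Sat1 at 145 ± 27.6 overlapped too, as did Srm at 91.1 ± 15.9 and Otc at 72.6 ± 7.94, while Amd1, Ass1 and Sms lay at 12, 4.14 and 4.09. In Lgr5-CreER cells Cps1 stood clear at 756 ± 79.6, followed by Odc1 at 146 ± 25.6, Srm at 104 ± 4.26 and Sat1 at 93.9 ± 14.9. There Arg2 was the seventh of 10, at 52.6 ± 12.5 (range 44.2 to 66.9), beside Otc at 61.3 ± 2.03, and the remaining genes were Amd1 at 18.9, Sms at 5.58 and Ass1 at 2.98. By this length, the level of Arg2 thus overlapped that of Cps1 in Hopx-CreER cells and that of Otc in Lgr5-CreER cells. With the mean length of protein-coding transcripts, the Lgr5-CreER mean of Otc rose to 69.1 CPM per kb and that of Arg2 stayed at 52.6. Amd1, Sms and Oat have shorter annotated coding transcripts, whose mean length raises their level per kb by over 1.5 times.

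**Figure D2:**
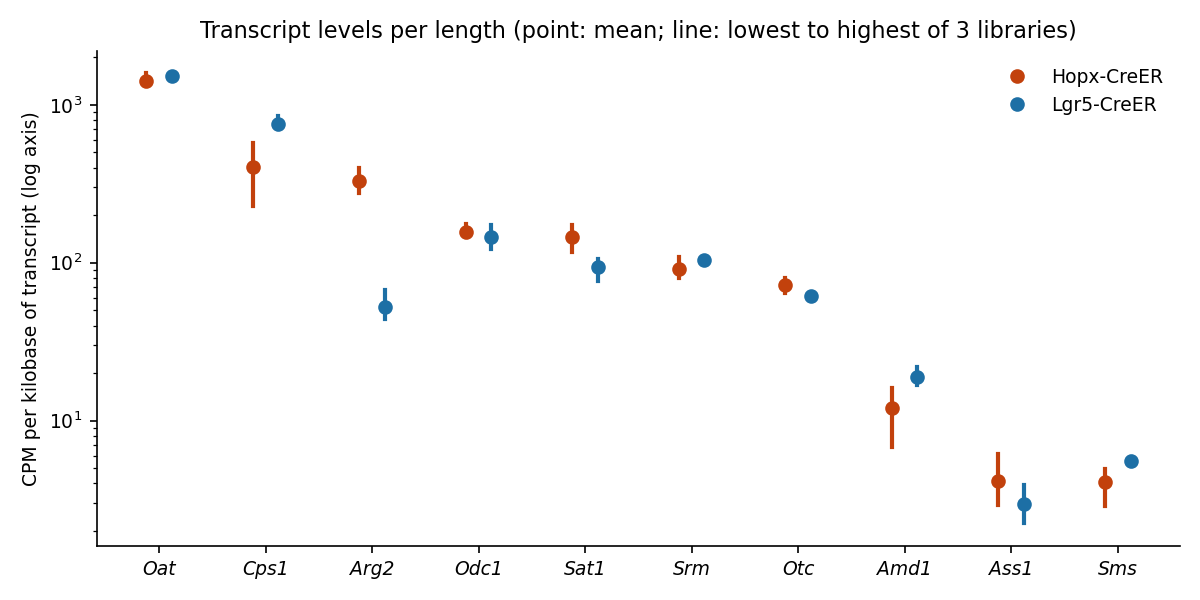
Level of each gene in CPM per kilobase of its longest transcript, on a log axis, in each group; points are means of 3 libraries and lines run from the lowest to the highest library. Arg2 moves from 52.6 CPM per kb in Lgr5-CreER cells, next to Otc, to 332 in Hopx-CreER cells, next to Cps1.

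Other genes of the pathways were taken as 5 lists by function, and these were tested with edgeR and adjusted over all tested genes. The lists, too, were chosen with earlier results of these data known. Their adjusted p-values and counts of calls therefore describe these data and are no independent support. Of 23 other arginine, urea cycle and proline genes, 20 could be tested, and 4 passed, all higher in Hopx-CreER cells (9.45% of all tested genes passed in that direction). The list's median log2 fold change was 0.17, beside -0.03 for all tested genes. Nags makes the N-acetylglutamate that Cps1 needs as its activator. It was measured at 121, 104.8 and 122.5 CPM in Hopx-CreER cells and at 69.7, 66.4 and 69.6 CPM in Lgr5-CreER cells, with tight groups far apart (log2 fold change 0.76 ± 0.11, adjusted p = 0.00357).

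The other 3 that rose were scarce. Prodh2, which oxidises hydroxyproline, was at 5.57, 15.1 and 14.5 CPM against 0.535, 0.605 and 0.275 CPM (log2 fold change 4.62 ± 0.52, adjusted p = 0.00106). Aldh4a1, which oxidises the pyrroline carboxylate formed from ornithine or proline, was at 3.94 ± 1.33 CPM against 0.717 ± 0.226 (log2 fold change 2.42 ± 0.45, adjusted p = 0.00832). Gamt, the last enzyme of creatine synthesis, was at 6.07 ± 1.19 CPM against 2.70 ± 0.175 (log2 fold change 1.16 ± 0.31, adjusted p = 0.0379), and it kept its call in only 1 of 6 fits that left out a library, with adjusted p from 0.0683 to 0.126 in the others. The most abundant of the 16 that did not pass was Aldh18a1, the enzyme that makes pyrroline carboxylate from glutamate, at 757 ± 93.2 CPM against 677 ± 76.0 (log2 fold change 0.16 ± 0.13, adjusted p = 0.467). Pycrl, Glud1 and Prodh, the next in abundance, had log2 fold changes of 0.11, 0.11 and 0.00. Arg1 was at 3.99, 6.60 and 12 CPM in Hopx-CreER cells and at 3.21, 0.95 and 2.06 CPM in Lgr5-CreER cells, without overlap, and it missed the threshold (log2 fold change 1.83 ± 0.52, adjusted p = 0.0505). Arg1 was thus scarce in all 6 libraries beside Arg2.

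Of 18 other polyamine genes, 12 could be tested, and 1 passed, where 9.45% of all tested genes passed in its direction. This was Azin2, one of the antizyme inhibitors that free ornithine decarboxylase from its antizyme. It was measured at 3.69, 2.79 and 3.80 CPM in Hopx-CreER cells and at 0.669, 0.432 and 0.895 CPM in Lgr5-CreER cells, so every Hopx-CreER library was higher (log2 fold change 2.33 ± 0.42, adjusted p = 0.00781). The abundant members did not pass. Eif5a, the protein that carries hypusine made from spermidine, had 1919 ± 189 CPM against 1822 ± 144 (log2 fold change 0.07 ± 0.12, adjusted p = 0.715). Oaz1, the antizyme itself, had 731 ± 91.6 CPM against 647 ± 31.5 (log2 fold change 0.18 ± 0.12, adjusted p = 0.371). Dohh, which completes hypusine, and Atp13a2, a lysosomal polyamine exporter, had log2 fold changes of 0.33 ± 0.14 (adjusted p = 0.167) and 0.02 ± 0.12 (adjusted p = 0.924). The list's median log2 fold change was 0.05.

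The methionine and S-adenosylmethionine genes, which supply Amd1 and recycle what the polyamine synthases leave over, gave 2 calls among 12 tested of 13, both lower in Hopx-CreER cells (3.3% of all tested genes were called lower). Mat2a, which makes S-adenosylmethionine, was at 398, 436 and 404 CPM in Hopx-CreER cells and at 566, 523 and 540 CPM in Lgr5-CreER cells (log2 fold change -0.40 ± 0.10, adjusted p = 0.0285). Mtap, which recycles the methylthioadenosine left by polyamine synthesis, was at 27.7, 28.2 and 32.6 CPM against 48.8, 39.7 and 49.1 CPM (log2 fold change -0.64 ± 0.16, adjusted p = 0.0296). Neither gene's groups overlapped, but both calls were fragile: with the GC offset the adjusted p was 0.525 for Mat2a, at a log2 fold change of -0.15, and 0.126 for Mtap. Leaving out 1 library at a time, Mat2a was called in 2 of 6 fits and Mtap in 1 of 6. The uncalled gene of the 10 with the highest mean over both groups was Ahcyl1, related to the hydrolase of S-adenosylhomocysteine, at 275 ± 74.7 CPM against 340.4 ± 14.1 (log2 fold change -0.31 ± 0.19, adjusted p = 0.321). Its relative Ahcyl2, higher than Ahcyl1 in Hopx-CreER cells, was at 332 ± 97.9 CPM against 272 ± 38.8 (log2 fold change 0.29 ± 0.20, adjusted p = 0.404). The list's median log2 fold change was -0.22.

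Of 14 carriers of arginine, ornithine and other cationic amino acids, 12 could be tested and 5 passed, all higher in Hopx-CreER cells (9.45% of all tested genes passed in that direction). Without Hopx-CreER library 3, 7 passed, of which 2 were lower, beside 1868 calls over all genes. The light chain Slc7a9 and its heavy chain Slc3a1 form the brush border exchanger that takes up cystine and dibasic amino acids such as arginine. Slc7a9 was measured at 110.4, 72.5 and 153 CPM in Hopx-CreER cells and at 24.2, 21.9 and 46.0 CPM in Lgr5-CreER cells (log2 fold change 1.86 ± 0.33, adjusted p = 0.00721). Slc3a1 was at 38.9, 34.9 and 44.6 CPM against 15.7, 16.1 and 20.6 CPM (log2 fold change 1.17 ± 0.19, adjusted p = 0.00446). Both were called in all 6 fits that left out a library.

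Slc7a7 and Slc3a2 form the basolateral exchanger that lets such amino acids out of the cell. Slc7a7 was at 90.3 ± 21.7 CPM in Hopx-CreER cells against 43.8 ± 14.0 in Lgr5-CreER cells (log2 fold change 1.04 ± 0.24, adjusted p = 0.0221), and its adjusted p was 0.0948 without Lgr5-CreER library 2 and 0.0946 without library 3. Slc3a2, which also pairs with other light chains, was at 283 ± 58.4 CPM against 157 ± 24.6 (log2 fold change 0.86 ± 0.17, adjusted p = 0.012, and 0.0565 without Lgr5-CreER library 2). Slc25a12, a mitochondrial aspartate-glutamate carrier, was at 41.5 ± 4.42 CPM against 22.9 ± 3.29 (log2 fold change 0.85 ± 0.17, adjusted p = 0.0131), and this rose to 0.071 without Lgr5-CreER library 2 and 0.0645 without library 3. The mitochondrial ornithine carrier Slc25a15, which brings Otc its substrate, did not pass, at 299 ± 32.7 CPM against 312 ± 10.5 (log2 fold change -0.06 ± 0.11, adjusted p = 0.761). Nor did the plasma membrane arginine carrier Slc7a1, at 67.0 ± 7.78 CPM against 67.8 ± 7.23 (log2 fold change -0.02 ± 0.14, adjusted p = 0.943). Slc7a2 and Slc7a6 also did not pass, but were lower in every Hopx-CreER library than in any Lgr5-CreER library. Slc7a2 was at 3.24 ± 1.62 CPM against 6.81 ± 1.39 (log2 fold change -1.08 ± 0.39, adjusted p = 0.110). Slc7a6 was at 31.6 ± 1.78 CPM against 41.0 ± 4.51 (log2 fold change -0.38 ± 0.15, adjusted p = 0.149). The list's median log2 fold change was 0.03, near that of all tested genes.

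**Figure D3:**
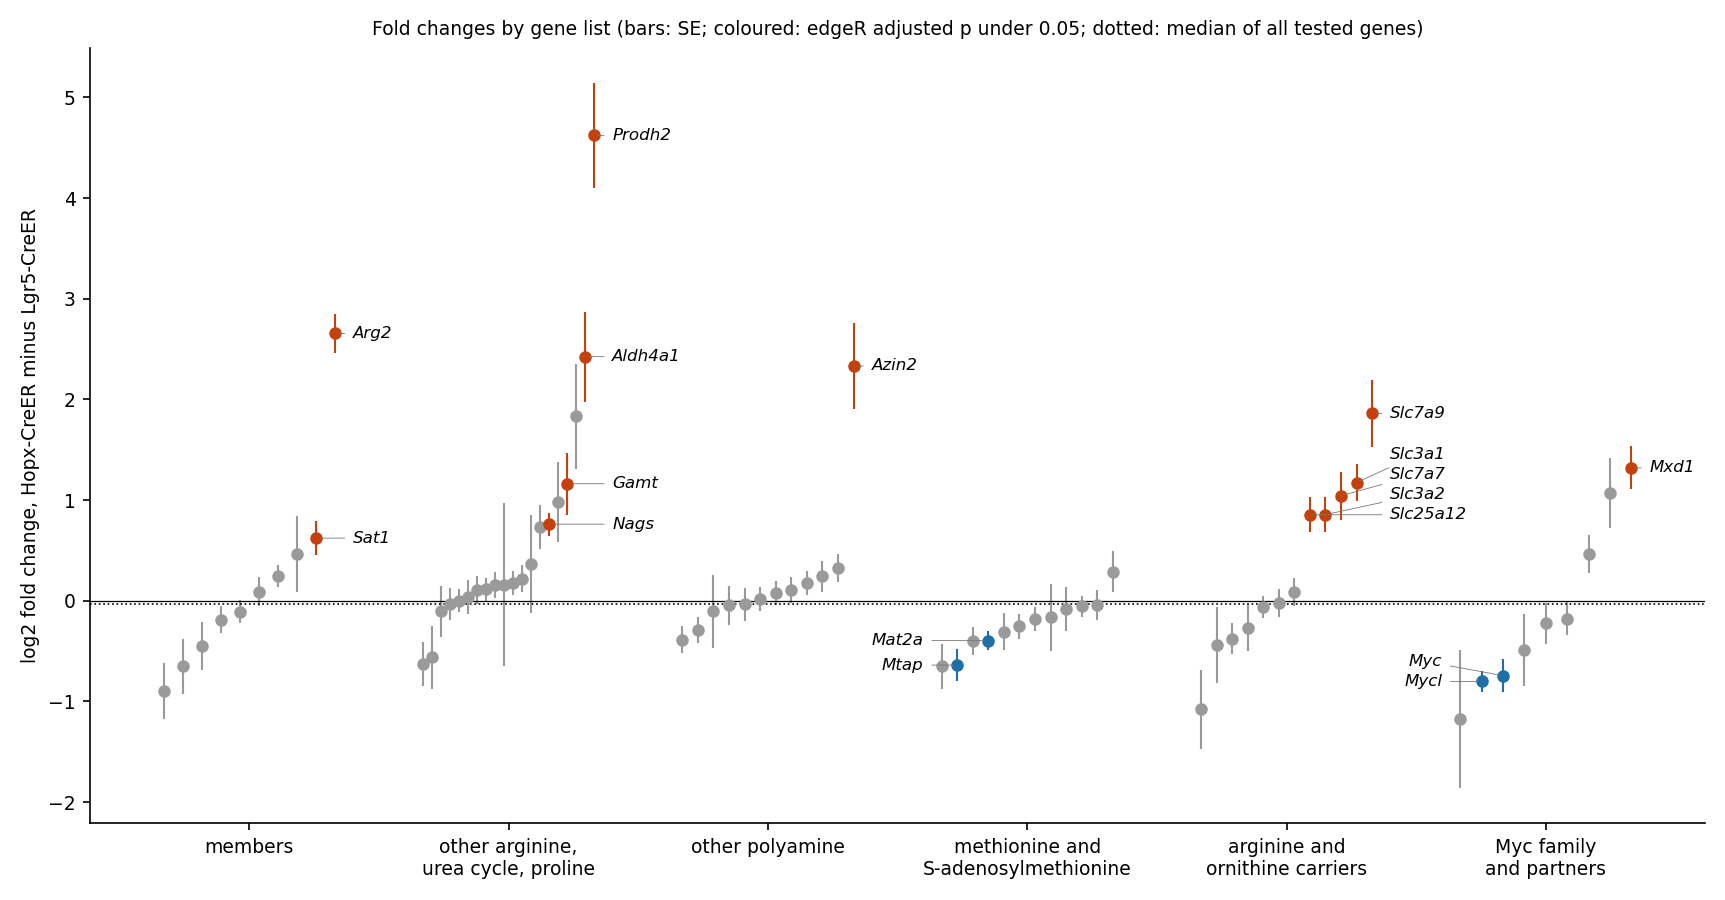
Log2 fold change (Hopx-CreER minus Lgr5-CreER) with SE of the 10 genes and of the tested genes of the other lists; coloured points had an edgeR adjusted p under 0.05 and the dotted line is the median of all tested genes, -0.03. Arg2 at 2.66 and Prodh2 at 4.62 lie highest on the vertical axis, the called carriers lie between 0.85 and 1.86, and most polyamine genes lie near 0.

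Odc1 is a textbook target of the transcription factor Myc, which pairs with Max at the E-box CACGTG, and Mxd1 is a Max partner that represses such targets. Of 9 genes of this family, all tested, 3 passed, where 12.8% of all tested genes did in either direction. Myc was at 210.0, 202 and 136 CPM in Hopx-CreER cells and at 289, 308 and 322 CPM in Lgr5-CreER cells (log2 fold change -0.74 ± 0.16, adjusted p = 0.0167, and 0.0639 and 0.0683 without Lgr5-CreER library 2 or 3). Mycl was at 108 ± 5.20 CPM against 188 ± 13.9 (log2 fold change -0.80 ± 0.11, adjusted p = 0.00203). Mxd1 was at 76.6, 56.3 and 104.4 CPM against 30.6, 34.3 and 30.1 CPM (log2 fold change 1.32 ± 0.21, adjusted p = 0.00477). Max did not pass, at 32.8 ± 6.60 CPM against 38.3 ± 6.93 (log2 fold change -0.22 ± 0.20, adjusted p = 0.513). Mxi1 and Mxd4 did not pass either, with log2 fold changes of -0.18 ± 0.16 (adjusted p = 0.520) and 0.47 ± 0.19 (adjusted p = 0.151). Mycn went the other way from Myc and Mycl. It was higher in every Hopx-CreER library than in any Lgr5-CreER library, but missed the threshold (log2 fold change 1.07 ± 0.35, adjusted p = 0.0754). The list's median log2 fold change was -0.22. Odc1, with its log2 fold change of 0.09 ± 0.14, showed no difference beyond its spread beside these.

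The E-box was searched in RefSeq promoter windows (GRCm38.p6, 250 bases before to 50 after each start site), which held 8 windows for 7 of the members and none for Arg2, Cps1 or Srm. CACGTG, which reads the same on both strands, was in 2 of the 8 windows and in 7.15% of all 32851 windows. The matches lie in Ass1, 36 bases before the start, and in the upstream of 2 Sms windows, 196 bases before it, and are shown in capitals with their surroundings, 5′ to 3′.
Ass1, chr2:31470222-31470251, plus strand: cgcgcccgtcccCACGTGtcccaggttcct
Sms, chrX:157492466-157492495, minus strand: cccagcggggttCACGTGcatttaaagaaa
The GENCODE annotation starts the Ass1 gene further upstream, so that this match lies within its span. The Odc1 window held no such word, which says only that these letters are not within it. Ass1 and Sms, the members with a match, had log2 fold changes of 0.47 ± 0.37 and -0.45 ± 0.24.

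The genes with the pattern most like that of Arg2 were sought among 7934 others with a mean of at least 10 CPM, by the Euclidean distance between gene-centred log2 CPM over the 6 libraries. This is a description of 6 libraries in 2 groups, with no test. Ces1f, a carboxylesterase, was nearest at a distance of 0.43, with 100, 116 and 176 CPM in Hopx-CreER cells and 15.9, 16.8 and 26.2 CPM in Lgr5-CreER cells. Cdkn2b, the cyclin-dependent kinase inhibitor p15, came next at 0.43 with 57.4, 54.0 and 77.5 CPM against 7.56, 8.03 and 16.2 CPM. The others were Slc26a6, an anion exchanger of the apical membrane (0.54), Slc51a, a subunit of the basolateral bile acid carrier (0.55), Gde1, a glycerophosphodiester phosphodiesterase (0.61), and Mep1b, a subunit of the brush border protease meprin (0.62). All 6 were higher in every Hopx-CreER library than in any Lgr5-CreER library, which follows from choosing them by likeness to Arg2. The nearest of the other 9 members was Sat1, at a distance of 2.53, ranked 1238 among the tested genes.

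**Figure D4:**
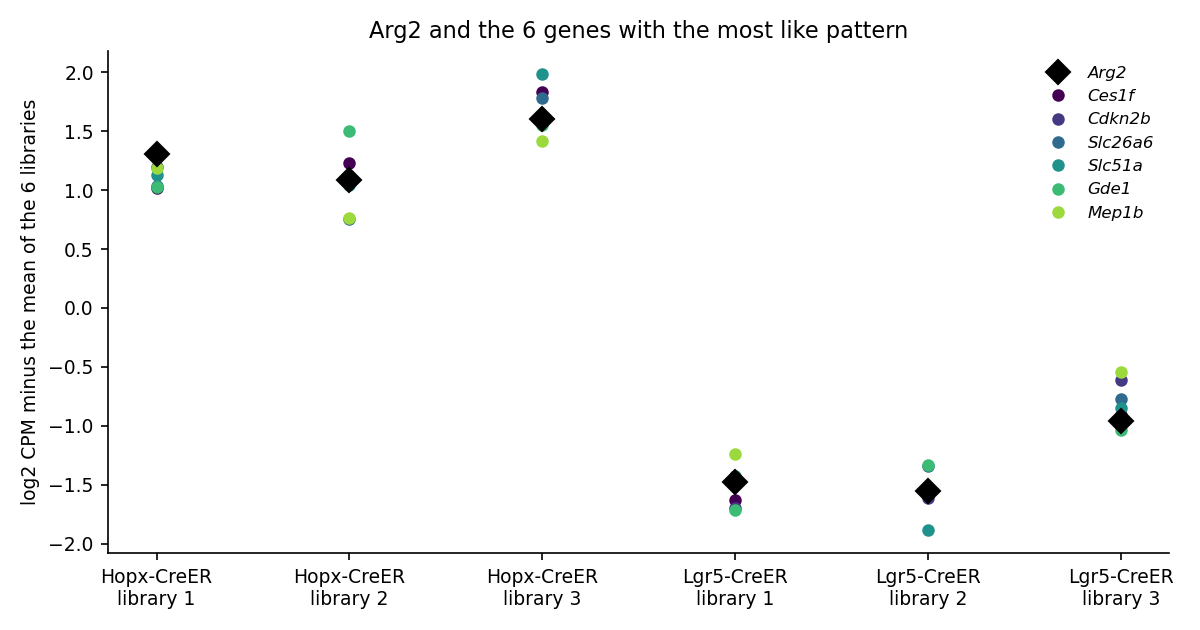
Gene-centred log2 CPM of Arg2 and the 6 genes nearest to it in pattern, over the 3 Hopx-CreER and 3 Lgr5-CreER libraries. The 6 genes lie at distances of 0.43 to 0.62 from Arg2. Each gene is above its own mean in the Hopx-CreER libraries and below it in the Lgr5-CreER libraries, which follows from choosing them by likeness to Arg2.

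Markers of the intestinal cell types moved with the groups, and their part in these results was not tested. Lgr5 RNA was at 52.8, 50.3 and 21 CPM in Hopx-CreER cells and at 103, 110.5 and 109.6 CPM in Lgr5-CreER cells. Hopx RNA was at 44.9, 64.2 and 53.7 CPM against 94.3, 87.9 and 87.1 CPM. The RNA of the driver gene Hopx was thus lower in the Hopx-CreER libraries (log2 fold change -0.73 ± 0.15, edgeR adjusted p = 0.0131). All 8 Lgr5 stem cell markers were called lower in Hopx-CreER cells (sum 2887 to 4671 CPM against 9690 to 10290). Called higher were 9 of 9 tested Paneth cell markers of 10 listed (14953 to 32520 CPM against 1657 to 3243), 8 of 8 goblet (7029 to 10610 against 2039 to 2685), 8 of 8 enteroendocrine (2890 to 6044 against 170 to 297) and 7 of 8 tuft cell markers (220 to 903 against 104 to 153). The enterocyte markers, 9 of 10 called higher, had summed levels of 2484, 2028 and 3726 CPM in Hopx-CreER libraries 1, 2 and 3 and 933, 912 and 1146 CPM in those of the Lgr5-CreER group. Of 10 leukocyte markers 3 passed the filter, with Cd14 called lower and Adgre1 and S100a8 at 0 in every library. Of 10 markers of fibroblasts, endothelium, muscle and nerve 1 passed it, and Col1a1, Cdh5 and Elavl4 were at 0. Of 6 hepatocyte-type and erythroid markers 2 passed it, with Alb called higher and Hba-a1 at 0.

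Hopx-CreER library 3 stood apart from libraries 1 and 2 in a way that, across genes, followed the GC content of transcripts. Its column name carries an addition that the labels do not explain. Across 8163 genes with at least 10 CPM, its log2 deviation from the mean of the other libraries of its group rose with GC content (Spearman's rho 0.55 across genes, which are not independent). The median deviation was -0.58 in the 10% of genes with the lowest GC and 0.25 in the 10% with the highest. The members that were low in it were Cps1 (46.6% GC, deviation -1.10), Amd1 (41.4%, -1.08), Sms (43.5%, -0.70) and Otc (41.1%, -0.25). The other 6 were high in it, from 0.25 for Oat to 0.97 for Ass1, with Arg2 at 0.41 and 46.1% GC. GC content did not sort the members, since Arg2 and Sat1 (44.3% GC, 0.40) were high and Cps1 was low. The low members had the longest transcripts: Cps1 5555, Sms 3717, Amd1 3204 and Otc 2997 bases. Next came Odc1 with 2208 bases. The part of transcript length was not tested. Without Hopx-CreER library 3 the log2 fold change of Arg2 was 2.50, and with the GC offset it was 2.83.

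**Figure D5:**
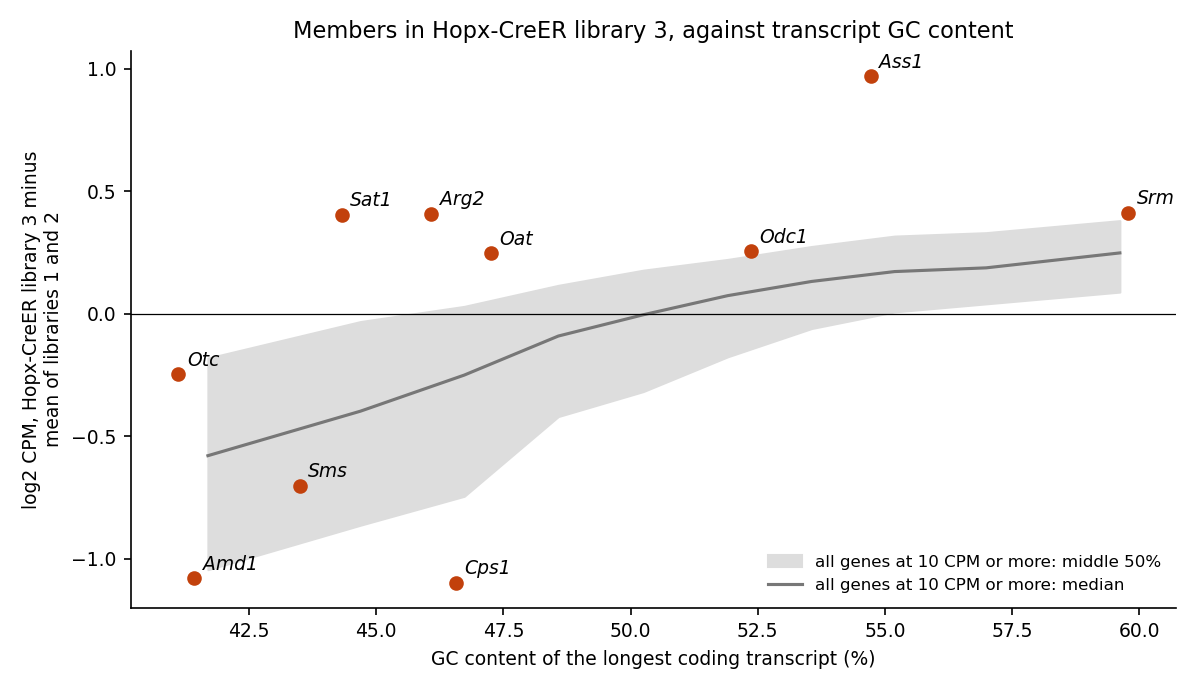
Log2 deviation of Hopx-CreER library 3 from the mean of libraries 1 and 2 (vertical axis) against the GC content of the longest transcript in percent (horizontal axis); the grey band holds the middle 50% of genes in each of 10 bins of GC content, its line is the median, and labelled points are the 10 genes. Amd1 and Cps1 lie lowest at about -1.1, and Ass1 lies highest at 0.97.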

How the data were processed

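The authors deposited 1 table of raw counts, whole numbers per versioned mouse Ensembl gene for 6 libraries, with no normalization. Per the labels, sorted cells went into TRIzol LS and libraries were made with SMART-Seq v4 and Nextera XT, which do not mark strand. GRCh38, a human build, kallisto and edgeR are named without role or version, per the submitters' processing notes. The step from reads to counts is not stated in the sources. GENCODE M21 (GRCm38) matched 23479 of 23565 identifiers and gave symbols, positions, lengths and GC content. Promoter windows came from RefSeq (GRCm38.p6).

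Library totals were 10839306 to 14570555 counts, which makes 1 count equal to between 0.0669 and 0.0928 CPM. Every pair of libraries within a group differed beyond sampling noise. Groups were compared by edgeR 4.0.16 (R 4.3.3) with TMM factors, filterByExpr and the quasi-likelihood F-test, with Benjamini-Hochberg adjustment over 12439 genes at a threshold of 0.05. At an unadjusted p under 0.05 there were 3402. Log2 fold changes are Hopx-CreER minus Lgr5-CreER. SDs are between libraries. Likeness to Arg2 was measured on log2 CPM (prior count 2).

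Alternatives were RLE, upper quartile and total scaling, DESeq2 1.42.0, limma-voom (limma 3.58.1), other filters, summing both Lgr5-CreER columns with a number in common, a GC offset (spline with 5 degrees of freedom per library), another transcript length and leaving out each library. The fit was tested on simulated data. The members and lists were chosen with earlier results of these data known. Named genes are the members, Hopx and Lgr5, the called genes of each pathway list with up to 4 abundant uncalled ones, and the 6 nearest to Arg2. Arg1, Vti1b, Gatm, Slc7a2, Slc7a6 and the genes sharing sequence with members were named after their values were seen.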

Additional observations from a re-analysis of the deposited data

How the results depend on the processing

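Over the alternatives run, the log2 fold change of Arg2 stayed between 2.50 and 2.86, that of Cps1 between -1.23 and -0.62 and that of Sat1 between 0.47 and 0.86, while Odc1 ran from -0.03 to 0.23. With library totals alone, which shifted the median of all genes by -0.11, 1667 genes were called, against 1586 with TMM factors. Of the 1667, 56.3% were higher in Hopx-CreER cells, against 74.1% of the 1586. In that fit 1 member and 2 other polyamine genes were called, 1 of the 2 lower in Hopx-CreER cells, and Oat was at -0.22. With the GC offset 1918 genes were called, 62.5% of them higher in Hopx-CreER cells. Among them were 4 members (Arg2, Otc, Srm and Sat1, with Srm lower) and 3 other polyamine genes, 2 of the 3 lower. The log2 fold changes of Otc and Srm were 0.51 and -0.41. The GC offset left 0 methionine genes called, with 3 at an unadjusted p under 0.05 in edgeR. Without that offset, edgeR called 2 of them, DESeq2 3 and limma-voom 2, beside 1586, 2097 and 1540 calls over all genes. Summing both Lgr5-CreER columns with a number in common gave 790 calls over all genes, 1 member, 3 carriers and 0 methionine genes (3 at an unadjusted p under 0.05). With 1 library left out, 723 to 1868 genes were called, 1 to 3 members, 0 to 2 methionine genes and 2 to 7 carriers. Leaving out Lgr5-CreER library 2 gave the 723. With the mean length of protein-coding transcripts, the levels in Hopx-CreER and Lgr5-CreER cells were 2451 and 2642 CPM per kb for Oat, 81.8 and 69.1 for Otc, 19.6 and 30.9 for Amd1, and 7.53 and 10.3 for Sms. The cause of these shifts was not tested. No paired analysis was possible because the columns carry no replicate number. At 0.2 to 0.278 CPM per 3 counts, genes under 1 CPM in Lgr5-CreER cells (Prodh2, Aldh4a1 and Azin2) rest on few counts there, with SEs of 0.42 to 0.52.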

Other observations

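In 2 further genes tied to the pathway, Lgr5-CreER library 1 differed from libraries 2 and 3 of its group, whose column names share a number. Gm7993, a pseudogene of Odc1, was at 1.54, 16.7 and 18.1 CPM in these 3 libraries and at 1.21, 2.54 and 2.23 CPM in the Hopx-CreER libraries. Gatm, the first enzyme of creatine synthesis, which forms ornithine from arginine, was at 0.535, 13.6 and 12.8 CPM in the same libraries and at 10.7, 14.4 and 4.92 CPM in the Hopx-CreER libraries. Both genes were chosen after their values were seen. Counts were compared by chi-square between libraries of a group, over the genes with at least 50 counts in the pair (10703 to 10933 genes). This gave 9.66 per degree of freedom between Lgr5-CreER libraries 2 and 3. Beside it were 22.6 and 23.6 for library 1 against each of them, and 24.8 to 54.4 between Hopx-CreER libraries. All pairs within a group thus differed by more than sampling noise, and each library was counted as 1 sample. Whether libraries 2 and 3 come from the same mouse is not stated in the sources.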
